A study of Mus musculus with 4 samples.

Results

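The sarcoglycan and dystrophin complex was described by 7 genes, Sgca, Sgcb, Sgcd, Sgce, Dmd, Dag1 and Sspn, out of 18112 genes common to the 3 count tables used. All 7 were listed in every table. The mice were male and of the Mef2c-mTmG strain, whose fluorescent reporter records embryonic lineage. Single cells came from the ascending aorta, and the study asked how cells derived from the second heart field (SHF) and cells of other origins differ in their response to infusion of angiotensin II (AngII). Digested tissue was sorted for live single cells and by lineage, and captured with the droplet-based 10x Chromium system and its 3' kit (version 3). The labels name 4 samples, of which 3 were used: SHF cells at baseline (SHF_Baseline), SHF cells after 3 days of AngII (SHF_AngII) and cells labelled CNC after 3 days of AngII (CNC_AngII). The labels do not spell out CNC, give no age, and do not say how many animals went into a library. The CNC_Baseline sample was not analysed here, so AngII was compared with baseline in the SHF lineage alone. Each group had 1 library. The difference between any pair of groups therefore had no replicate check, no p-value is given, and every interval covers counting error only.

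The dystrophin-glycoprotein complex links the actin cytoskeleton of a muscle cell, through its membrane, to laminin and other proteins of the basement membrane. Dystrophin (Dmd) is the large rod on the cytoplasmic side, dystroglycan (Dag1) is the receptor that spans the link and binds the matrix, and the sarcoglycans with sarcospan (Sspn) form a subcomplex that stabilises it. Striated muscle uses alpha-sarcoglycan (Sgca), while epsilon-sarcoglycan (Sgce) is a close relative found in many tissues, and in smooth muscle both beta- and delta-sarcoglycan (Sgcb, Sgcd) are part of the complex.

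Smooth muscle cells (SMC) were those with at least 5 unique molecular identifiers (UMIs, counted transcripts) of Myh11, smooth muscle myosin heavy chain, and 0 of Pdgfra. Fibroblasts had at least 1 UMI of Pdgfra, a growth factor receptor of mesenchymal cells, and at most 2 of Myh11. The SMC gate held 2259 of 8374 kept cells in SHF_Baseline, 4649 of 9299 in SHF_AngII and 6385 of 10194 in CNC_AngII. The fibroblast gate held 3939, 2640 and 842 cells. The UMIs of a gate were added up per gene and scaled by the gate's total to counts per 1000000 UMIs (CPM), each with an exact Poisson 95% interval where an interval is shown. A ratio is log2((CPM + 1)/(CPM + 1)), and its 95% counting interval is that of the ratio without the added 1, so for a gene near 0 CPM in either group the printed ratio can lie below its own interval. A gene was called where the ratio passed a fold of 1.5 in either direction and its mean over both groups was at least 10 CPM. The share of all genes so called is printed beside the members' counts.

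The tables held 92474476, 147854476 and 150954701 UMIs, with medians of 10315.5, 13325 and 12609.5 per kept cell. The 8 smooth muscle markers summed to 59985 to 68915 CPM in the SMC gate and to 1512, 4420 and 4331 CPM in the fibroblast gate of SHF_Baseline, SHF_AngII and CNC_AngII. The 8 fibroblast markers summed to 37057, 15522 and 13534 CPM in the fibroblast gate and to 1810 to 2003 CPM in the SMC gate. The labelled cell types therefore showed their markers in every library, but smooth muscle transcripts were more abundant in the fibroblast gate of both AngII libraries than at baseline. Macrophage markers stood at 223 CPM in the SMC of CNC_AngII and at no more than 2.61 CPM in the other SMC. Members of the complex are also made by striated muscle, whose markers were present at low levels in SMC. The cardiomyocyte list summed to 28.4 to 29.0 CPM, with 2 of its 6 genes at 10 CPM or more in SHF_Baseline and 1 in each AngII library. Myh6, Myl2 and Mb were each at most 0.24 CPM, so nearly all of the sum came from Actc1, Ryr2 and Tnni3. The skeletal muscle list summed to 8.77 to 36.5 CPM. Of its 3 genes common to the tables, 0 reached 10 CPM in SHF_Baseline, 2 in SHF_AngII (Ckm and Tnnt3) and 1 in CNC_AngII. Acta1 was at most 0.19 CPM and Ckm stood at 6.09, 24.7 and 23.4 CPM. The part of these transcripts in the members' levels was not tested. Pairs of libraries shared 29 to 34 cell barcodes, at most 0.361% of the smaller library.

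In GENCODE M21, on the GRCm38 (mm10) build named in the submitters' processing notes, Dmd occupies chrX:82948870-85206141 on the plus strand and Sgcd chr11:46896253-47988969 on the minus strand. Sgca lies at chr11:94962791-94976327, Sgcb at chr5:73632749-73647790, Sgce at chr6:4674350-4747207 and Dag1 at chr9:108204634-108263958, all on the minus strand, and Sspn at chr6:145931641-145965223 on the plus strand. Exons of Sspn overlap those of 1 other gene, the antisense Sspnos, which had 0, 0 and 3 UMIs in the SMC of the 3 libraries. Whether strand was used in counting is not given in the sources used here. Exons of the other 6 members overlap none of another gene in GENCODE M21. Whether that annotation was used in counting is not known.

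The promoters of 4 starts are shown because Dmd and Sgca were the members with the largest excess in SMC and Dag1 the member closest to even at baseline. RefSeq (GRCm38.p6) held windows for 6 of the 7 members, Sgce excepted. Each sequence is the 250 bases before an annotated start, on the strand of the gene, and capitals mark a CArG box, the motif read by serum response factor that many smooth muscle genes carry. The 3' libraries cannot tell which start a Dmd transcript used.
Dmd, chrX:82948620-82948869, plus strand: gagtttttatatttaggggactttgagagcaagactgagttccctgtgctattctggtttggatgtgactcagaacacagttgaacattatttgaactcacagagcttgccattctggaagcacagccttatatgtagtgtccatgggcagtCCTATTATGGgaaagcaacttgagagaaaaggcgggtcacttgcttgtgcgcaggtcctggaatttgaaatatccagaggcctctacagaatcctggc
Dmd, a start further downstream, chrX:85048045-85048294, plus strand: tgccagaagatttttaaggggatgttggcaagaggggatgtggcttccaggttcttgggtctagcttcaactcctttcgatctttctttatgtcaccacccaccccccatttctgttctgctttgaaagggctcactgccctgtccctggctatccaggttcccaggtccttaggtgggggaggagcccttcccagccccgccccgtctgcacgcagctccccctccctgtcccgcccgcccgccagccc
Sgca, chr11:94976328-94976577, minus strand: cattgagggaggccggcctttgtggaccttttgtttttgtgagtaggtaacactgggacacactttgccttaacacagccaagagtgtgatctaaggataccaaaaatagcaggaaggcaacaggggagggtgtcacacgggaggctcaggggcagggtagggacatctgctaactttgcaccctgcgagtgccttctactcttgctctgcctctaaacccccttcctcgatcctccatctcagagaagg
Dag1, chr9:108263959-108264208, minus strand: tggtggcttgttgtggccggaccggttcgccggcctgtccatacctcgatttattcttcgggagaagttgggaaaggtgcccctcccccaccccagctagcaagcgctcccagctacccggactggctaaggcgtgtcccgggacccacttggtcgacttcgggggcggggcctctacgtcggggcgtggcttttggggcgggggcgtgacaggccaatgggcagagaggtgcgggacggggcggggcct

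The first Dmd window held a CArG box beginning 98 bases before the start, and none of the other windows of the members did. Both strands were searched, and no mismatch was allowed. A CArG box was present in 482 of 32851 windows of the same length (1.47%), so the match is uncommon among promoters and a match in letters is a description only. The E-box CANNTG, found in 66.2% of all windows, occurred in the Sgca and Dag1 windows and in the first Dmd window. The first Dmd window was low in GC, at 45.2% with 2 CG dinucleotides, where the median of all windows was 52.4% with 6. The Dag1 window was GC-rich, at 67.6% with 21 CG dinucleotides, and the Sgca window lay near the median at 52.8% with 4.

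In smooth muscle cells, every member was detected in all 3 libraries. Dystrophin stood at 359 CPM (352 to 366) in the SMC of SHF_Baseline, 214 CPM (210 to 217) in SHF_AngII and 218 CPM (215 to 221) in CNC_AngII. Dystrophin was thus highest at baseline, and the 2 AngII libraries lay close together. After each cell was thinned to 5000 UMIs, 77.4% of the baseline SMC had a Dmd UMI, against 64.4% and 65.3% of the SMC of SHF_AngII and CNC_AngII. Dag1, the receptor, stood at 121, 135 and 165 CPM in the same order, lowest at baseline and highest in CNC_AngII. Sspn, the tetraspan partner of the sarcoglycans, was the most even member, at 88.8, 84.1 and 88.9 CPM.

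The 4 sarcoglycans of the group divided in SMC. Sgcb stood at 79.0 CPM in SHF_Baseline, 105 in SHF_AngII and 112 in CNC_AngII. Sgcd ran the other way, at 90.0, 63.7 and 57.5 CPM, as did Sgce at 61.0, 54.0 and 48.9 CPM. Sgca stood at 37.0, 35.4 and 29.6 CPM. These are levels of 3' tags per gene, and no order between genes is read from them. Thinned to 5000 UMIs, a UMI was found for Sgca in 15.3 to 17.6% of SMC, for Sgcb in 31.8 to 42.4%, for Sgcd in 25.4 to 35.3% and for Sgce in 21.6 to 26.5%. The median SMC held 12441 UMIs at baseline and 13336 and 13450 in the AngII libraries, and unthinned shares for Sgca were 35.1, 37.6 and 33.2%.

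In fibroblasts Sgca was nearly absent. It had 44 UMIs over all fibroblasts of SHF_Baseline, 40 in SHF_AngII and 8 in CNC_AngII, which are 1.16, 0.891 and 0.698 CPM. The 1765 macrophages of CNC_AngII, a cell type that should lack the gene, held Sgca at 0.482 CPM (0.231 to 0.887), and the interval of the CNC_AngII fibroblasts, 0.302 to 1.38 CPM, overlaps it. The thinned share of fibroblasts with an Sgca UMI was 0.528, 0.359 and 0.260%, and of macrophages 0.177% (0.0366 to 0.517%), with a median depth of 12379.5 UMIs in those fibroblasts and 11098 in the macrophages. At this depth Sgca in the fibroblasts of CNC_AngII cannot be told from the macrophage level. In SHF_Baseline and SHF_AngII only 10 and 15 cells passed the macrophage gate, so no background was measured there, and the fibroblast intervals were 0.843 to 1.56 and 0.636 to 1.21 CPM. The other 6 members stood above the level of the CNC_AngII macrophages in the fibroblasts of all 3 libraries. For SHF_Baseline and SHF_AngII this is a comparison across libraries. Macrophages of CNC_AngII held Dmd at 1.88 CPM, Sgcd at 0.916 and Sspn at 0.579, but Sgcb at 20.9, Dag1 at 24.5 and Sgce at 9.02 CPM.

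Fibroblasts carried Sgce at 120 CPM in SHF_Baseline, 69.7 in SHF_AngII and 65.0 in CNC_AngII. Dag1 stood at 118, 99.5 and 110 CPM, and Sgcb at 64.9, 75.3 and 70.7 CPM. Sspn stood at 79.2, 42.3 and 39.4 CPM, with the baseline fibroblasts well above both AngII libraries. Dmd stood at 65.2, 26.9 and 19.3 CPM, again highest at baseline. Sgcd stood at 40.2, 32.8 and 40.3 CPM, its own lowest level being that of SHF_AngII.

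**Figure D1:**
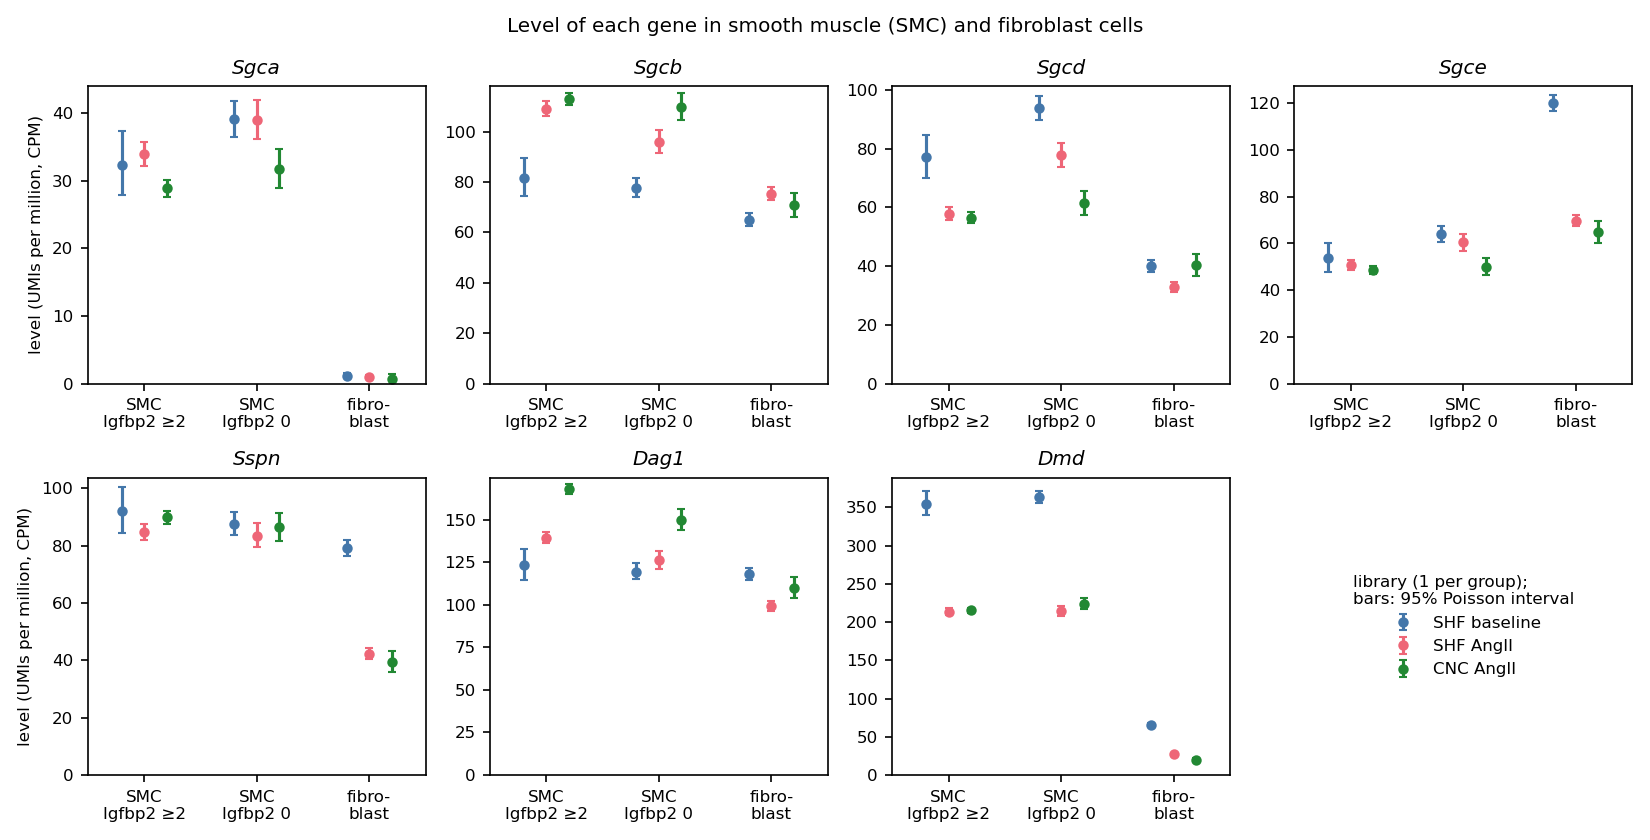
Level in CPM (vertical axis, starting at 0) of each of the 7 genes in smooth muscle cells with at least 2 UMIs of Igfbp2, an insulin-like growth factor binding protein, smooth muscle cells with 0, and fibroblasts, 1 colour per library, with bars for the exact Poisson 95% interval (counting error only). Dmd was the gene with the widest gap between smooth muscle and fibroblasts in CPM, and Sgce was the one that was higher in fibroblasts in every library.

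Within each library, SMC were compared with fibroblasts. Both gates hold different cells of the same library, so the library preparation is shared, although the median depth differed (12441 and 9534 UMIs in SHF_Baseline, 13336 and 15485.5 in SHF_AngII, 13450 and 12379.5 in CNC_AngII). In SHF_Baseline 3 of the 7 members were higher in SMC past the fold and 1 was lower, where 36.6% of 7735 genes were called. In SHF_AngII 4 were higher and 0 lower, where 37.9% of 7192 genes were called, and in CNC_AngII 4 were higher and 0 lower, where 36.6% of 7247 genes were called. By direction, 12% of all genes were called higher in SMC in SHF_Baseline, 15.3% in SHF_AngII and 14.9% in CNC_AngII, and 24.6, 22.6 and 21.7% lower. The median ratio of the members was 0.28, 0.94 and 0.66, and that of all genes tested -0.19, -0.11 and -0.11. With TMM scaling the medians of all genes became 0.06, 0.09 and 0.12, and the share of calls that were higher in SMC changed from 32.8, 40.4 and 40.7% to 51.2, 57.0 and 59.1%.

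Sgca and Dmd were past the fold in all 3 libraries. The ratio of Sgca was 4.14 in SHF_Baseline (counting interval 4.56 to 5.46), 4.27 in SHF_AngII (4.86 to 5.80) and 4.17 in CNC_AngII (4.42 to 6.62). Since its fibroblast level was near 1 CPM, this ratio depends on the added 1 CPM: with 10 CPM added it was 2.07, 2.06 and 1.89, still past the fold. The ratio of Dmd was 2.44 (2.40 to 2.52), 2.94 (2.90 to 3.07) and 3.43 (3.31 to 3.70). These intervals did not overlap, but they cover counting error only. Dmd spans more than 500 kb of the genome, and the median ratio of genes of at least 500 kb also differed between libraries. It was -0.29 in SHF_Baseline, 0.28 in SHF_AngII and 0.17 in CNC_AngII. The part of genomic span in the order of the Dmd ratios was not tested. Dmd was lower in the AngII libraries in both gates, and the fibroblast level went from 65.2 to 19.3 CPM over the same order.

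The remaining sarcoglycans, Dag1 and Sspn differed less. Sgcd was higher in SMC by 1.14 (1.07 to 1.26) in SHF_Baseline and 0.94 (0.87 to 1.04) in SHF_AngII, both past the fold, and by 0.50 (0.37 to 0.65) in CNC_AngII, short of it. Sgce was the only member lower in SMC, by -0.97 (-1.06 to -0.90) in SHF_Baseline, past the fold, and by -0.36 and -0.40 in SHF_AngII and CNC_AngII, within it. Its sign held under all 12 alternative settings in each library. Sspn stood at 0.16 in SHF_Baseline and past the fold at 0.98 and 1.15 in the AngII libraries, where its fibroblast level was lower and its SMC level nearly equal to that at baseline. Sgcb stood at 0.28, 0.48 and 0.66, past the fold in CNC_AngII alone, and Dag1 at 0.04, 0.44 and 0.58, within the fold throughout. With TMM scaling Sgcb and Dag1 also passed the fold in SHF_AngII, at 0.68 and 0.64, and Sgcb, Sgcd and Dag1 in CNC_AngII, at 0.89, 0.73 and 0.81. TMM scaling gave 6 members past the fold in each AngII library and 4 in SHF_Baseline. Of all genes, 38.16% were called at that setting in SHF_AngII, 37.35% in CNC_AngII and 34.99% in SHF_Baseline. In the same order 21.74, 22.06 and 17.90% were called higher in SMC, and 16.43, 15.29 and 17.09% lower. Smooth muscle transcripts in the fibroblast gate were more abundant in the AngII libraries, as given above, and their part in these ratios was not tested.

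**Figure D2:**
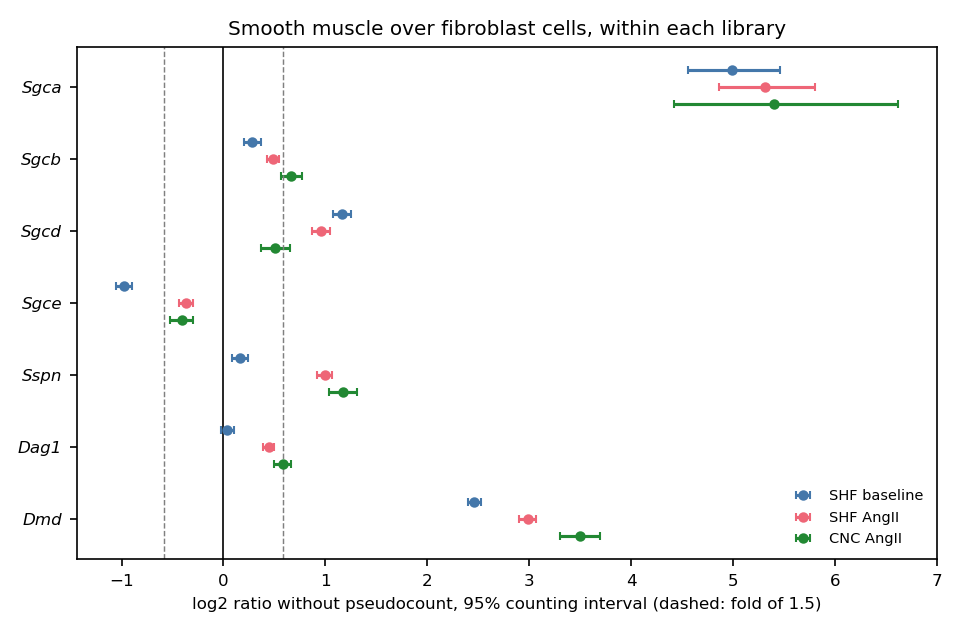
Ratio of smooth muscle to fibroblast cells for each gene, as the log2 ratio of CPM with no count added (horizontal axis), 1 marker per library with its 95% counting interval and dashed lines at the fold of 1.5. Sgca and Dmd lie far to the right in all 3 libraries and Sgce is the only gene to the left of 0.

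AngII was set against baseline in the SHF lineage. Among the members in SMC, 1 of 7 was called, Dmd, where 24.4% of 7001 genes were called (8.76% higher and 15.6% lower). The Dmd level of 359 CPM at baseline and 214 CPM after AngII gave a ratio of -0.75 (-0.79 to -0.71). Sgcd was lower at -0.49 (-0.57 to -0.43) and Sgcb higher at 0.41 (0.35 to 0.48), both within the fold. The others lay nearer to 0, with Dag1 at 0.16, Sgce at -0.17, Sspn at -0.08 and Sgca at -0.06. The median of the members was -0.08 and that of all genes -0.10. With TMM scaling the median of all genes was 0.07, the share of calls that were higher changed from 36.0 to 61.7%, Dmd lay just within the fold at -0.58, and Sgca and Sspn changed sign to 0.11 and 0.09.

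In fibroblasts 3 of the 6 members that could be called were lower after AngII past the fold, where 38.1% of 7694 genes were called (10.5% higher and 27.6% lower). Dmd went from 65.2 to 26.9 CPM, a ratio of -1.25 (-1.38 to -1.18). Sspn had a ratio of -0.89 (-0.99 to -0.82) and Sgce one of -0.78 (-0.85 to -0.72). Sgcb stood at 0.21, Dag1 at -0.24 and Sgcd at -0.28, and Sgca was below the minimum of 10 CPM. The median over the 6 was -0.53 and that of all genes -0.21. With TMM scaling the median of all genes was 0.05 and the share of calls that were higher changed from 27.6 to 57.1%. Dag1 stood at 0.03, and Dmd (-0.98) and Sspn (-0.62) were the 2 members still past the fold. Of all genes 35.87% were called at that setting, 20.49% higher and 15.38% lower.

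The baseline and AngII tables were not made alike. The AngII libraries list 32285 genes each, and at baseline 18760 genes are listed, under older names, and the ratio of AngII to baseline moved with the genomic span of a gene over all genes tested. In SMC the median ratio was 0.11 for genes under 10 kb, -0.06 from 10 to 30 kb, -0.23 from 30 to 100 kb, -0.31 from 100 to 300 kb, -0.49 from 300 to 500 kb and -0.50 for the 59 genes of at least 500 kb. In fibroblasts it was 0.12, -0.13, -0.39, -0.53, -0.69 and, for 58 genes, -0.88. Between the AngII tables no such gradient was seen, the medians of CNC_AngII over SHF_AngII lying between -0.02 and 0.05 in SMC. Dmd and Sgcd are the longest members by RefSeq, at 2390.4 and 1018 kb, followed by Sgce at 72.9, Dag1 at 59.1, Sspn at 33.4, Sgcb at 15.0 and Sgca at 13.6 kb.

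Centred on the median of genes of like span, an alternative chosen after seeing the data, the ratio of Dmd after AngII was -0.25 in SMC and -0.36 in fibroblasts, and neither passed the fold. Dmd kept its sign and lay below the median of the long genes in both gates. Sgcd stood at 0.01 in SMC, and in fibroblasts it turned to 0.60, past the fold and higher. Sspn and Sgce in fibroblasts stood at -0.50 and -0.39 on the same scale, Dag1 at 0.39 in SMC and 0.15 in fibroblasts, and Sgcb at 0.47 and 0.34. Sgcb, a short gene, was higher after AngII in both gates under all 12 alternatives. The part of genomic span in the members' ratios, beyond these values, was not tested, and the treatment and the making of the tables cannot be told apart.

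**Figure D3:**
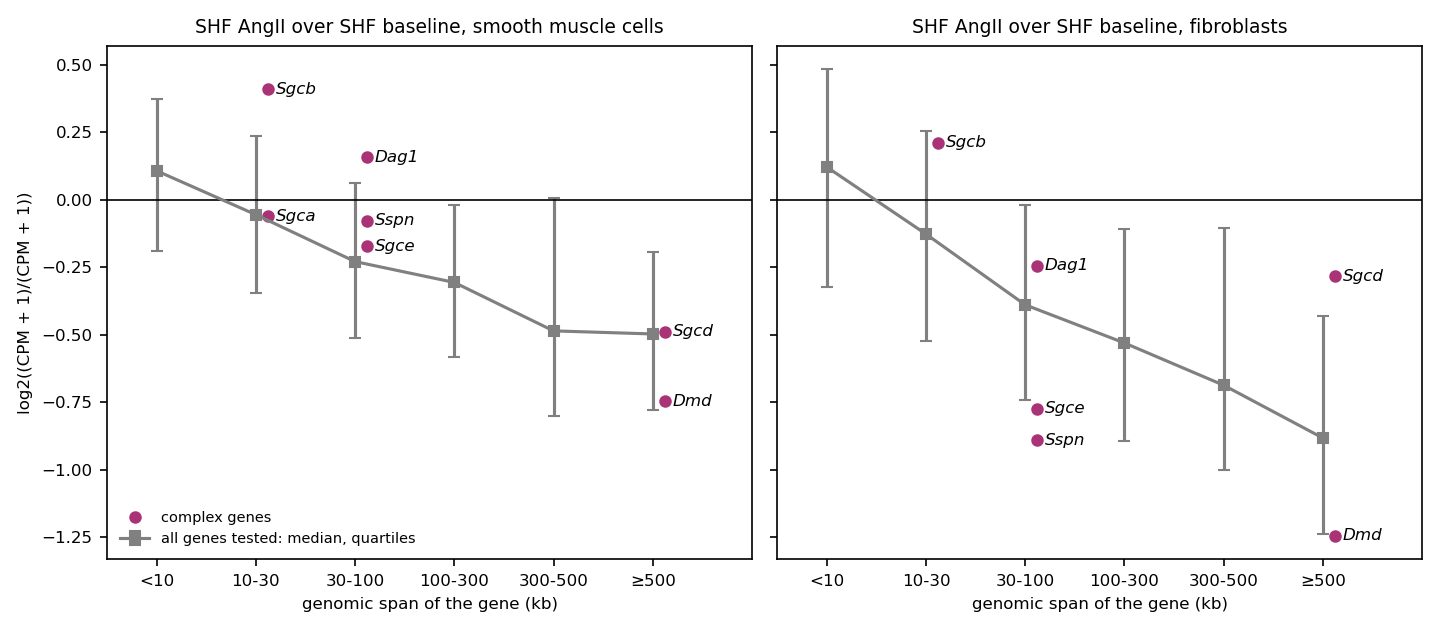
Ratio of SHF_AngII over SHF_Baseline, log2((CPM + 1)/(CPM + 1)), against genomic span class in kb, for smooth muscle cells (left) and fibroblasts (right), with the median and quartiles of all genes tested and the members as points. The medians go from 0.11 to -0.50 in smooth muscle and from 0.12 to -0.88 in fibroblasts, and Dmd lies below the median of its class in both.

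In SMC, Dmd was lower after AngII on both sides of the Igfbp2 split. Igfbp2 separated SMC with at least 2 UMIs (358, 2695 and 4630 cells in SHF_Baseline, SHF_AngII and CNC_AngII) from SMC with 0 (1723, 1513 and 1211 cells). In the cells with Igfbp2, Dmd stood at 355 CPM at baseline and 214 CPM after AngII in the SHF lineage, a ratio of -0.73 (-0.80 to -0.66). In the cells without it, Dmd stood at 363 and 215 CPM, a ratio of -0.76 (-0.81 to -0.70). Dmd was the 1 member called in each, where 25.1 and 20.1% of all genes were called, 16.5 and 12.3% as lower. Sgcb stood at 0.42 and 0.30, and Sgcd at -0.41 and -0.27, within the fold on both sides.

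Between the Igfbp2 classes of 1 library, 0 of 7 members were called, where 1.82% of genes were called in SHF_Baseline, 2.69% in SHF_AngII and 1.23% in CNC_AngII. Dmd differed by -0.03, -0.01 and -0.06, and Sspn by 0.07, 0.02 and 0.06. Sgcd was lower in the cells with Igfbp2 by -0.28 (-0.44 to -0.13), -0.42 (-0.52 to -0.33) and -0.12 (-0.23 to -0.02), and its sign held under all 12 alternatives in each library. Sgca stood at -0.26, -0.20 and -0.13, but with the stricter cell filter its sign turned in SHF_Baseline (0.18) and CNC_AngII (0.03). Dag1 was at 0.04, 0.14 and 0.16, with an interval that includes 0 at baseline, and Sgce at -0.25, -0.25 and -0.04. Median depth was 15084.5 UMIs against 11965 at baseline, 14955 against 10419 in SHF_AngII and 14308 against 10674 in CNC_AngII. The part of depth in these differences was not tested.

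CNC_AngII was set against SHF_AngII to compare origins after AngII. In SMC 0 of 7 members were called, where 1.94% of 6766 genes were called, and in fibroblasts 0 of 6, where 2.31% of 7216 genes were called. Dmd stood at 218 and 214 CPM in SMC, a ratio of 0.03 with an interval that reaches 0. Sspn at 0.08, Sgcb at 0.09, Sgce at -0.14 and Sgcd at -0.15 were small as well. The 2 largest differences in SMC were Dag1, higher in CNC_AngII at 0.28 (0.25 to 0.32), and Sgca, lower at -0.25 (-0.34 to -0.18). Both exceeded counting error and kept their sign under all 12 alternatives, at 0.25 to 0.31 and -0.32 to -0.20. The spread between libraries of 1 origin is not known, so neither can be set against it.

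The same directions held within the Igfbp2 classes. Dag1 stood at 0.27 (0.23 to 0.31) in cells with Igfbp2 and 0.25 (0.16 to 0.33) in cells without, where 1.39 and 3.99% of all genes were called. Sgca stood at -0.23 and -0.29. Sgcd differed by -0.03 (-0.11 to 0.04) in cells with Igfbp2 and -0.34 (-0.46 to -0.22) in cells without, and the difference between these values was not tested. In fibroblasts the largest difference between origins was Dmd, at 26.9 CPM in SHF_AngII and 19.3 in CNC_AngII, a ratio of -0.46 (-0.69 to -0.27) that rested on 221 UMIs in CNC_AngII. It passed the fold in 2 alternatives, with the stricter gate and, at -0.80, with free RNA subtracted, and was -0.14 when cells were thinned to 2000 UMIs. Sgcd was higher in CNC_AngII fibroblasts at 0.29 (0.14 to 0.45). Macrophage markers in the fibroblast gate stood at 169 CPM in CNC_AngII and 18.8 in SHF_AngII, and their part in these ratios was not tested.

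**Figure D4:**
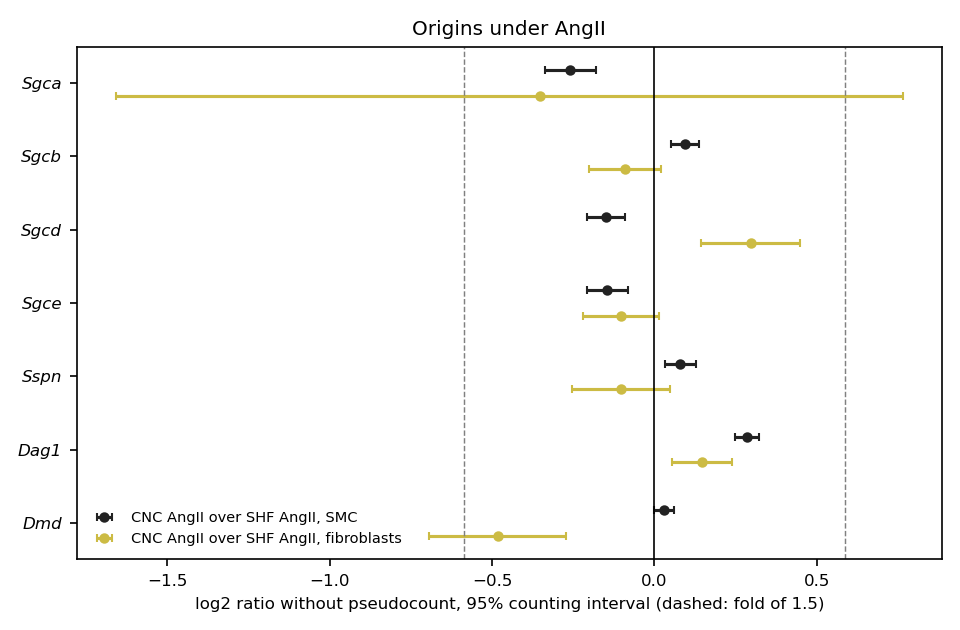
Ratio of CNC_AngII over SHF_AngII for each gene in smooth muscle and fibroblast cells, as the log2 ratio of CPM with no count added (horizontal axis), with 95% counting intervals and dashed lines at the fold of 1.5. The points of all 7 genes in smooth muscle lie between the dashed lines, and the interval of Sgca in fibroblasts, which rests on 40 and 8 UMIs, crosses both.

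The level of the members was then followed with the degree of Myh11 expression among SMC, ranked by the Myh11 share of a cell's UMIs and divided into 3 equal bands in each library. Dmd was graded in every library. From the lowest to the highest band it stood at 275, 342 and 454 CPM in SHF_Baseline, at 141, 215 and 309 CPM in SHF_AngII and at 148, 224 and 317 CPM in CNC_AngII. The highest band exceeded the lowest by 0.72 (0.65 to 0.79), 1.12 (1.07 to 1.18) and 1.10 (1.06 to 1.15). In CPM the highest bands of both AngII libraries lay between the lowest and the middle band of the baseline library. The baseline and AngII tables were not made alike. The median ratio of SHF_AngII over SHF_Baseline in SMC was -0.50 for the 59 genes of at least 500 kb, as given above. The treatment and the making of the tables cannot be told apart in this comparison of bands.

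Sgca followed Myh11 in the AngII libraries. It stood at 35.4 and 37.5 CPM in the lowest and highest band of SHF_Baseline, at 27.6 and 45.0 CPM in SHF_AngII and at 17.9 and 41.3 CPM in CNC_AngII, ratios of 0.08 (-0.13 to 0.30), 0.69 (0.56 to 0.85) and 1.16 (1.07 to 1.34). Of the 7 members, 1 was called in SHF_Baseline and 2 in each AngII library, where 2.26, 6.71 and 8.89% of all genes were called, 0.656, 4.35 and 4.77% as higher. Sgcd rated 0.31, 0.36 and 0.32, within the fold, and the ratios of Sgcb, Sgce, Dag1 and Sspn lay between -0.04 and 0.33. Median depth went from 11891 to 12962 UMIs from the lowest to the highest band at baseline, but from 15312 to 11609 in SHF_AngII and from 17153 to 11544 in CNC_AngII. Over the same bands the 8 fibroblast markers, all detected in each, went from 2650 to 1468 CPM in SHF_Baseline, 2440 to 1598 in SHF_AngII and 1940 to 1633 in CNC_AngII. Macrophage markers went from 401 to 73.9 CPM in CNC_AngII, with 6 of 6 detected in both bands, and stayed at no more than 3.53 CPM in the other libraries. The part of depth and of these transcripts in the members' ratios was not tested.

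**Figure D5:**
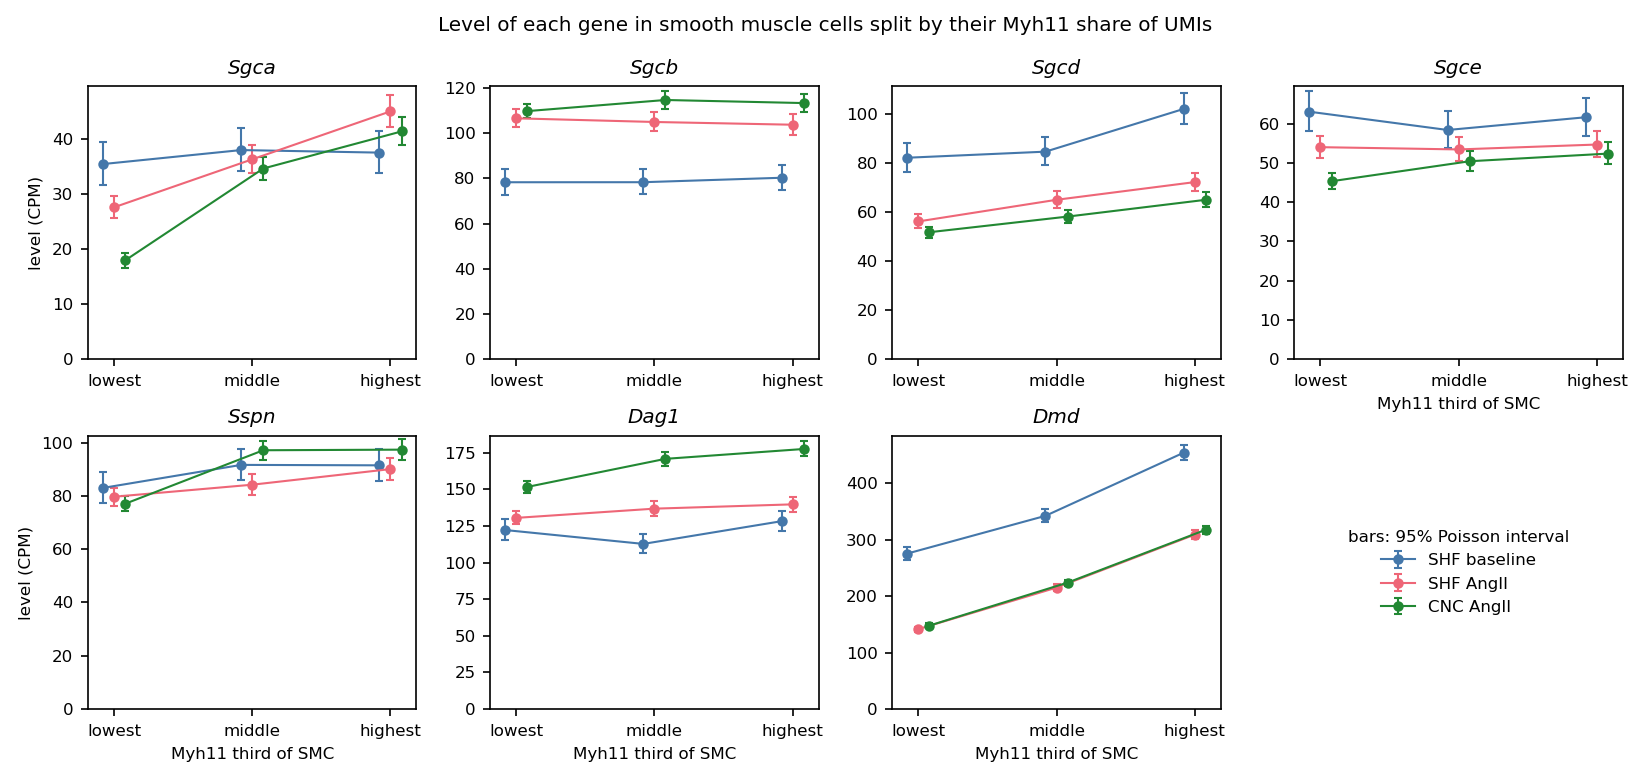
Level in CPM (vertical axis, starting at 0) of each gene in smooth muscle cells of the lowest, middle and highest band of Myh11 share, 1 line per library with exact Poisson 95% intervals. Dmd goes up with Myh11 in all 3 libraries and Sgca in both AngII libraries, while the other genes change by less than the fold of 1.5.

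Further splits of the gates gave few differences. SMC with at least 2 UMIs of Spp1, osteopontin, were 249 cells in SHF_AngII and 811 in CNC_AngII, against 1 at baseline, which was not used. Sgca was the 1 member called in each, lower in the Spp1 cells at 19.7 against 37.3 CPM in SHF_AngII (-0.89, -1.21 to -0.65) and at 16.7 against 33.0 CPM in CNC_AngII (-0.94, -1.17 to -0.81), where 4.43 and 4.38% of genes were called, 2.11 and 1.57% as lower. Dmd was lower by -0.41 and -0.46, within the fold. The Spp1 cells were deeper, with medians of 21983 and 20453 UMIs against 12700.5 and 12492, and their smooth muscle markers summed to 53141 against 70752 CPM in SHF_AngII and 46307 against 66002 in CNC_AngII. Macrophage markers stood at 290 against 180 CPM in CNC_AngII. The part of these in the Sgca ratio was not tested. For Tnnt2, a troponin, 0 members were called between SMC with at least 2 UMIs and SMC with 0 in any library, where 0.827, 2 and 0.981% of genes were called.

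In fibroblasts, cells with a UMI of Pi16, a marker of adventitial fibroblasts, had Dmd at 64.9 against 67.3 CPM without it in SHF_Baseline, 25.6 against 42.4 in SHF_AngII and 16.9 against 36.2 in CNC_AngII. The ratios were -0.05, -0.71 and -1.06, and Dmd was the 1 member called in each AngII library and 0 were called at baseline, where 10.8, 8.81 and 11.5% of genes were called. In the AngII libraries 6.08 and 6.47% of genes were called lower. The cells without Pi16 held more transcripts of other cell types. Their smooth muscle markers, 8 of 8 detected, summed to 8731 against 4046 CPM in SHF_AngII, 7844 against 3828 in CNC_AngII and 2580 against 1347 at baseline. Mesothelial markers stood at 172 against 2.37 CPM in SHF_AngII and 74.6 CPM in CNC_AngII, where 1 of them was detected in the cells with Pi16, and macrophage markers at 672 against 97.3 CPM in CNC_AngII. Dmd was far higher in SMC than in fibroblasts, and the part of these transcripts in its ratio was not tested. Cells with at least 2 UMIs of Cthrc1, a gene of matrix-producing fibroblasts, had Dmd at 0.17, -0.53 and -0.60 and Sgcd at -0.32, -0.67 and -0.39 relative to cells with 0. Sgcd was called in SHF_AngII and Dmd in CNC_AngII, both lower, where 7.64 and 10.2% of genes were called (4.4 and 6.49% lower), and 0 members at baseline, where 11.2% were. The Cthrc1 cells were deeper in every library, with medians of 13046, 20581 and 15979 UMIs against 9162, 10656.5 and 8765.5. Smooth muscle markers in them stood at 3931 against 5435 CPM in SHF_AngII and 4522 against 4167 in CNC_AngII, and their part was not tested either.

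The other genes of the complex were taken from 5 lists. Their counts stand against the shares of all genes: in SHF_Baseline, SHF_AngII and CNC_AngII 12, 15.3 and 14.9% were called higher in SMC and 24.6, 22.6 and 21.7% lower. After AngII 8.76% were called higher and 15.6% lower in SMC, and 10.5 and 27.6% in fibroblasts. For genes of at least 500 kb the share called lower after AngII was 40.7% in SMC and 67.2% in fibroblasts. Ratios of list genes are given without centring by genomic span, and the part of span in them was not tested. Of the sarcoglycan relatives, Sgcz had 0 UMIs in the SMC of both AngII libraries, where 3 counts over the gate, the limit taken for a count of 0, are 0.0432 and 0.0313 CPM. It was not listed in the baseline table.

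Among 10 cytoplasmic partners, the 5 that could be called in SHF_Baseline were 4 higher and 1 lower in SMC, and the 6 in each AngII library were 5 higher and 1 lower. Dtna, alpha-dystrobrevin, had ratios of 3.05, 4.02 and 3.55, and Utrn, utrophin, the paralogue of dystrophin, was past the fold in all 3 libraries, at 2.05 and 2.16 in SHF_AngII and CNC_AngII. Dtnb, beta-dystrobrevin, was at 2.32 and 2.55 in the AngII libraries and below the minimum at baseline. Sntb2, a syntrophin, was the 1 lower in SMC, at -1.47, -1.31 and -1.18. After AngII in SMC, Dtnb was higher at 1.74 (7.4 to 27.1 CPM) and Sntg2 lower at -1.38 (51.0 to 19.0 CPM), the other 4 lying within the fold. These 2 of 6 are close to the 24.4% of all genes called in that comparison.

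Of the 18 enzymes that glycosylate dystroglycan, 12 could be called in SHF_Baseline, with 3 higher and 3 lower in SMC, and 11 in each AngII library, with 4 higher and 1 lower. The 3 of 12 lower in SHF_Baseline are near the share of all genes called lower there. B3galnt2 (1.45, 1.66 and 1.67) and Pomgnt1 (0.84, 1.53 and 1.63) were higher in every library. Gmppb, which supplies GDP-mannose, was lower in SMC (-0.84, -0.84 and -0.94), and it was the 1 gene of the list called after AngII in SMC, higher at 1.07. In fibroblasts after AngII Gmppb was higher at 1.08, and 3 of 12 were lower, among them B3galnt2 at -0.79 and B4gat1 at -0.74, again near the share of all genes.

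Of 9 matrix ligands of dystroglycan that could be called, 1 was higher and 3 lower in SMC in SHF_Baseline, and 3 higher and 2 lower in each AngII library. The 1 of 9 higher at baseline and the 2 of 9 lower after AngII are near the shares of all genes. Lama5, a laminin alpha chain, was higher in SMC (2.90, 3.43 and 3.00). Lama2, the laminin alpha chain of muscle basement membrane, was lower in SMC (-3.69, -2.77 and -3.25), as was Lamb1 (-4.97, -2.89 and -2.70). In fibroblasts after AngII 4 of 8 were lower, Lama2 at -1.22, Lamb1 at -1.17, Agrn at -0.94 and Lamc1 at -0.69. Genomic span was not taken into account in these 4 ratios. Between origins in SMC, Lama2 was the 1 gene of all lists that was called, at 14.1 CPM in SHF_AngII and 8.6 in CNC_AngII, a ratio of -0.66, where 1.94% of all genes were called.

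Most of the other membrane anchors of muscle that could be called were higher in SMC. Of 13, 11 could be called in SHF_Baseline, with 9 higher and 0 lower, and 12 in each AngII library, with 9 higher and 2 lower in SHF_AngII and 8 higher and 2 lower in CNC_AngII. Itga7, the laminin receptor subunit of muscle, had ratios of 4.16, 4.64 and 4.33, and Flna, filamin A, 3.54, 2.78 and 2.57. After AngII in SMC 2 of 11 were higher, Plec, the linker plectin, at 1.09 and Itga7, and 4 were lower, among them Ank2 at -1.24, Cav1, the coat protein of caveolae, at -0.86 and Synm at -0.86, against 8.76 and 15.6% of all genes. In fibroblasts 3 of 11 were higher, led by Tln2 at 1.51, and 2 were lower. Genomic span was not taken into account in the ratios of the anchors after AngII.

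By the root mean square difference of centred log2 levels over 9 groups that share no cell (the 2 Igfbp2 classes of SMC and the fibroblasts of each library), the genes most like each member were sought among 7393. The genes nearest to Dmd were Ppp1r12b (0.148), Peli2 (0.195) and Popdc2 (0.202), where Dmd itself ranged over 4.17. Nearest to Sgca, which ranged over 4.56, were Akap6 (0.173), Lmod1 (0.179) and Lgr6 (0.183). Nearest to Sgcd was Pde5a (0.0964), to Sgce Mpv17 (0.0684), to Sgcb 2510039O18Rik (0.0713), to Dag1 Bloc1s6 (0.0598) and to Sspn Acyp1 (0.0502). The groups share libraries, depth and the gates, and these values are a description.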

How the data were processed

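The 3 deposited tables hold raw UMI counts, genes by cell barcodes, which the authors had not normalised, per the file headers and values. The submitters' processing notes name the genome build mm10 and the tools fastp, STAR 2.5 and HTSeq 0.6.1, without role or order. The gene annotation and the strand setting are not given in the sources used here. Libraries held 9412, 11166 and 11098 barcodes. Baseline gene names were matched to the AngII names, 518 of them by way of a synonym that pointed to 1 gene. Repeated names (13) were dropped. The common genes held 99.9, 99.6 and 99.6% of the UMIs.

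Kept cells had 500 or more genes and a mitochondrial share of 10% or less. Doublets were called in each library with Scrublet in scanpy 1.11.5. The expected rate was 8e-06 times the number of barcodes examined, which was 9041, 9792 and 10670. The calls were 207, 192 and 279 cells and were left out. Gates were applied to raw UMIs. The macrophage gate took at least 3 of 6 markers, at most 2 UMIs of Myh11 and 0 of Pdgfra. For shares of cells, each cell was thinned to 5000 UMIs without replacement and shallower cells were left out, 45, 59 and 82 SMC and 717, 136 and 73 fibroblasts in SHF_Baseline, SHF_AngII and CNC_AngII. Ratio intervals are conditional binomial, levels have exact Poisson and shares exact Clopper-Pearson intervals, all at 95% and computed with scipy 1.17.1. TMM factors came from edgeR 4.0.16. No count model was fitted, since each group had 1 library. The scripts were tested on simulated data.

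Named were all members and, from each list, up to 4 genes called in a comparison, by the size of the ratio; some list genes are not reported here. The members and lists were chosen with earlier results of these data known. The 13 alternatives per comparison covered the cell filter, doublets, gates, scaling, weighting of cells, thinning, pseudocount, free RNA, gene minimum and fold, and centring by genomic span was added.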

Additional observations from a re-analysis of the deposited data

Results flagged for a closer look

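Dag1 stood on opposite sides of 0 in the comparison of SHF_AngII with SHF_Baseline, at 0.16 in smooth muscle cells and -0.24 in fibroblasts, both within the fold of 1.5. The difference between the gates was not tested, as there is 1 library per group. Under TMM scaling the fibroblast value was 0.03, and centred by genomic span it was 0.15. With the stricter cell filter the smooth muscle value was -0.17. The baseline and AngII tables were not made alike, as given above. Sgcd stood on opposite sides of 0 in the comparison of CNC_AngII with SHF_AngII, at -0.15 in smooth muscle cells and 0.29 in fibroblasts. This difference was not tested either, and both values kept their sign under all 12 alternatives.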

How the results depend on the processing

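The 70 member ratios were each recomputed under 12 settings, which gave 840 values. Of these values 669 moved by less than counting error and 171 by more, and 0 called ratios changed sign. Called members of smooth muscle over fibroblasts in SHF_AngII went from 4 to 2 at a fold of 2, for which the stricter threshold is the cause. The share of all genes called went from 37.9 to 22.4%. For SHF_AngII over SHF_Baseline in smooth muscle the count of 1 (Dmd) became 2 with the stricter cell filter. That filter asked for 1000 genes or more and a mitochondrial share of 5% or less, which left 120 baseline cells. The count was 0 with TMM scaling, at a fold of 2 and when centred by genomic span, a setting chosen after seeing the data. The share of all genes called was 24.4% as reported and 38.1% with the stricter cell filter. It was 22.9, 6.38 and 20.2% with TMM scaling, at a fold of 2 and centred by span. In fibroblasts the count of 3 became 1 at a fold of 2 (Dmd) and 1 when centred by span (Sgcd). The share of all genes called there was 38.1% as reported, 15.3% at a fold of 2 and 31.4% centred by span. For CNC_AngII over SHF_AngII in fibroblasts the count of 0 became 1 (Dmd) with the stricter gate and 1 with 5% free RNA subtracted. Of all genes 2.16 and 2.17% were called at these settings, and 2.31% as reported. Beyond those settings' own construction the cause was not tested. With the stricter cell filter Sgcb in smooth muscle over fibroblasts at baseline stood at -0.03 and Dag1 after AngII in smooth muscle at -0.17. In the Igfbp2 comparison of SHF_AngII the share of calls that were higher was 18.7%, and 30.2% with TMM scaling. No paired analysis was possible because each group has 1 library. The Sgca values in fibroblasts rest on few counts, 8 to 44 UMIs per library.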
